A study of Mus musculus with 6 samples.

Results

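Thymocyte and recent emigrant genes are genes that T cells use while they assemble and test their receptor in the thymus, together with genes whose products are still present on, or in, cells that have just left it. The 8 genes described here were taken by symbol from the deposited table of 55450 genes: Rag1, Rag2, Dntt, Ptcra, Cd24a, Sox4, Plxnd1 and Cd1d1. They were measured by RNA-seq in CD8 T cells sorted from lymph nodes as naive cells lacking Ly6C and CXCR3 at the surface, in 3 CD103KO (Itgae-/-) and 3 WT (C57BL/6) samples. The question was how far the RNA of these resting cells differs without CD103, the alpha E integrin subunit that Itgae encodes. The labels used here give no age, treatment, strain background of the Itgae-/- mice or number of animals behind a sample, and a p-value here reflects variation among samples that may be technical.

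Total expected counts ran from 68292475 to 76044311 per CD103KO library and from 74438908 to 94347034 per WT library, so 1 count corresponded to 0.0132 to 0.0147 CPM (counts scaled to library size) in CD103KO and 0.0104 to 0.0134 CPM in WT. Itgae itself was at 65.6 ± 3.90 CPM in CD103KO and 482 ± 19.3 CPM in WT (SD, n = 3 each), so the libraries matched their genotype labels. Summed over 8 markers of naive CD8 T cells, the level was 7479 to 7632 CPM in CD103KO and 7550 to 7705 CPM in WT. WT replicates 1 and 2 had 5012 and 7628 Xist counts, whereas the CD103KO libraries had at most 2 and WT replicate 3 had 1. Ddx3y, a Y chromosome gene, had 0 counts in WT replicates 1 and 2, 4466 in WT replicate 3 and 3612 to 3944 in the CD103KO libraries. WT replicates 1 and 2 thus read as female and the others as male, so group and sex are partly confounded. WT replicate 3 is the WT library that matches the CD103KO libraries in this respect. None of the 8 genes lies on chromosome 11, which holds Itgae.

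In the thymus, RAG1 and RAG2 together cut DNA at the segments of the T cell receptor genes, and terminal deoxynucleotidyl transferase, encoded by Dntt, adds untemplated nucleotides at the junctions. A rearranged beta chain is first tested in a complex with the pre-T alpha chain encoded by Ptcra. Cells that pass go on to the double-positive stage, where they are selected on self ligands, and then mature, lose surface CD24 and leave for the lymph nodes. The recombinase and Ptcra are switched off by then, whereas a remnant of the immature programme can be seen in recent emigrants.

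The 8 genes fell into transcribed genes and genes at the edge of detection. The start regions of 4 of them are printed to set a pair that was detected at no more than a few counts in most libraries (Rag1 and Ptcra) beside a pair that was transcribed in every library (Dntt and Sox4). Each stretch covers 250 bases before and 50 after the RefSeq start (GRCm38.p6), at chr2:101649483-101649782 on the minus strand for Rag1, chr17:46763663-46763962 on the minus strand for Ptcra, chr19:41029025-41029324 on the plus strand for Dntt and chr13:28953650-28953949 on the minus strand for Sox4. Capitals mark E-boxes, CANNTG, the letters bound by E proteins such as the products of Tcf3 and Tcf12, whose binding the products of Id2 and Id3 block.
Rag1: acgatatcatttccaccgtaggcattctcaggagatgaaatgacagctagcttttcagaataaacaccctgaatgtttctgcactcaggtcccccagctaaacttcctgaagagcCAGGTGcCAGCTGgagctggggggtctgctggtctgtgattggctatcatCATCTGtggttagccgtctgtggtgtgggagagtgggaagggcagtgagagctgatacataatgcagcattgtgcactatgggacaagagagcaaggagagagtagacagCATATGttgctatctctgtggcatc
Ptcra: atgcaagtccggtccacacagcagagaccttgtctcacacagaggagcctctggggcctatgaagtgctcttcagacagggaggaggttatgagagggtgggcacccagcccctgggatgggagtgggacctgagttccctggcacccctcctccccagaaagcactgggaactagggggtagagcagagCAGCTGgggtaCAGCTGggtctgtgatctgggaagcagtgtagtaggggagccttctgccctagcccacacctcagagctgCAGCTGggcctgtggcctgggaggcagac
Dntt: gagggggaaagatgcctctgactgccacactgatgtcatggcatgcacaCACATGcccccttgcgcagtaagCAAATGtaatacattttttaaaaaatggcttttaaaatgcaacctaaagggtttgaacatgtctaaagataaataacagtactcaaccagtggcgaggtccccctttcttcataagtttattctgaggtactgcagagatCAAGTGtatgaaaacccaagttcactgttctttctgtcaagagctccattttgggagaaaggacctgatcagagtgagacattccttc
Sox4: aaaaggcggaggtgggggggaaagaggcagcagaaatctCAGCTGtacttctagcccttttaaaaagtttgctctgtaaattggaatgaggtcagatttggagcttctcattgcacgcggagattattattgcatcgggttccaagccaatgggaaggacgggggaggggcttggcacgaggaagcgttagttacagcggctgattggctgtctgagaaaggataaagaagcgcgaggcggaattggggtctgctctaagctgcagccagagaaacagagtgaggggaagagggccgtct
The motif reads the same on both strands, and CAGCTG is 1 form of it. E-box matches numbered 4 in the Rag1 stretch, 3 in Ptcra (each of them CAGCTG), 3 in Dntt and 1 in Sox4 (CAGCTG), beside 2 in Rag2 and 0 in Plxnd1. Of 32851 such stretches in the table, 72.3% held at least 1 CANNTG and 16.3% held CAGCTG. A match describes letters and is not a measured site. RefSeq stretches were matched for 6 of the 8 genes, the others being Cd1d1 and Cd24a.

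Per kilobase of merged exons (GENCODE M21) the order of mean levels in CD103KO was Cd1d1, Dntt, Sox4, Cd24a, Plxnd1, Rag1, Rag2 and Ptcra, and in WT it was the same down to Rag1, then Ptcra and Rag2. Cd1d1 averaged 11.2 ± 1.43 CPM per kilobase in CD103KO and 10.1 ± 0.936 in WT (SD, n = 3 each). Dntt averaged 5.11 ± 0.481 CPM per kilobase in CD103KO and 5.36 ± 0.431 in WT, and Sox4 4.64 ± 0.208 in CD103KO and 4.39 ± 0.136 in WT. These neighbours were close: the Dntt and Sox4 levels per kilobase overlapped among CD103KO libraries (Dntt 4.64 to 5.60, Sox4 4.41 to 4.82) and did not among WT libraries (Dntt 4.97 to 5.82, Sox4 4.29 to 4.54). Cd24a was at 1.14 ± 0.0971 CPM per kilobase in CD103KO and 0.762 ± 0.0907 in WT, and Plxnd1 at 0.193 ± 0.00903 in CD103KO and 0.174 ± 0.0351 in WT. Among 13470 tested genes, the mean level per kilobase was above that of 71.3% of genes for Cd1d1, 54.7% for Dntt, 51.5% for Sox4, 27.7% for Cd24a and 12.1% for Plxnd1. The ranges of Rag1, Rag2 and Ptcra over the libraries overlapped. Within each library Rag1 was above Rag2 (0.0533 against 0.0129 CPM per kilobase in CD103KO replicate 2), mostly from 2 counts or fewer against 0. In WT replicate 1 Ptcra was above Rag1 per kilobase, from 1 count each. Rag2 and Ptcra cannot be ordered at this depth.

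**Figure D1:**
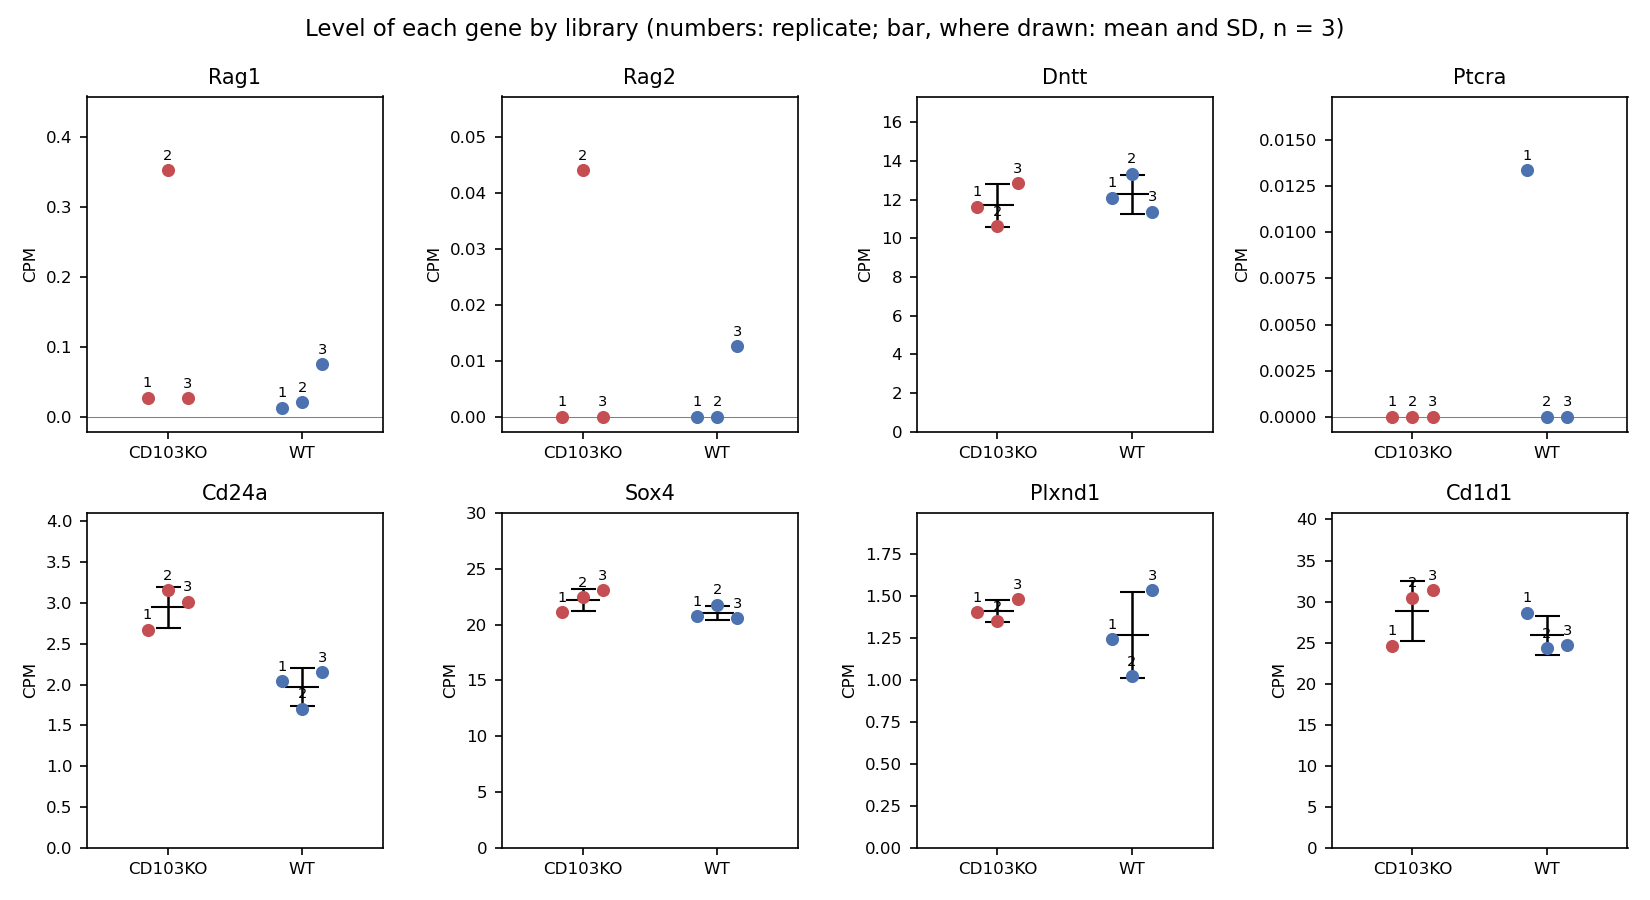
Level of each of the 8 genes in CPM (vertical axis, a separate scale per gene) in the 3 CD103KO and 3 WT libraries; each point is a library with its replicate number, and bars show mean and SD, left out for the 3 genes too low to be tested. Cd24a is the gene whose groups do not overlap, at 2.67 to 3.16 CPM in CD103KO and 1.70 to 2.15 CPM in WT, and Rag1 stands at 0.352 CPM in CD103KO replicate 2.

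The test of CD103KO against WT (edgeR quasi-likelihood test, Benjamini-Hochberg adjustment at 0.05 over 13470 genes) called none of the 8 genes, of which 5 had enough counts to be tested. Over all tested genes it called 30, or 0.223%, so a count of 0 among 5 is also what that share would leave. At an unadjusted p under 0.05 there was 1 of the 5, Cd24a, beside 8.73% of all tested genes, and DESeq2 called 0 of the 6 it tested (0.822% of all genes it tested). On simulated counts for these 13470 genes this procedure called 38% of those with the smallest change simulated. It called 72% of those altered 1.5-fold and 82% of those altered 2-fold, and 12 of its 155 calls were genes left unaltered. With 50 genes altered at each size, calls outnumbered the 30 of the data. The cutoff on unadjusted p was therefore more lenient, and these rates, taken over genes of all levels, may be too high here.

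The receptor-assembly genes come first. Rag1 (ENSMUSG00000061311.6, chromosome 2, 101638282 to 101649501, GRCm38, minus strand), the catalytic part of the recombinase, had 2, 24 and 2 counts in CD103KO replicates 1, 2 and 3, against 1, 2 and 6 counts in WT replicates 1, 2 and 3. A single library, CD103KO replicate 2, thus held most of the counts: 24 of the 28 in CD103KO, against 9 in all of WT. Its level was 0.352 CPM (exact Poisson 95% interval 0.226 to 0.524 CPM, counting error only), above the upper bounds of the other 5 libraries, the highest of which was 0.164 CPM in WT replicate 3. Without that library the CD103KO sum was 4 counts. Between the groups the exact two-sided permutation test on CPM gave p = 0.5 (3 against 3 libraries, smallest possible p 0.1), and in a fit without a filter on low counts the log2 fold change of Rag1 was 1.83 (SE 0.96, adjusted p = 0.775, edgeR).

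Rag2 (ENSMUSG00000032864.4, chromosome 2, 101624718 to 101632529, plus strand), the partner that the recombinase cannot work without, had 0, 3 and 0 counts in CD103KO and 0, 0 and 1 in WT. Its counts therefore came from CD103KO replicate 2 and WT replicate 3, which also held the most Rag1 counts of their groups. A floor of 3 counts, a rule other than the exact Poisson interval given for Rag1, puts the limit that a count of 0 allows at 0.0409 CPM in CD103KO replicate 1 (Poisson upper bound 0.0502 CPM), and the exact two-sided permutation p was 1 (smallest possible 0.1). B230118H07Rik, a protein-coding gene whose exons overlap Rag1 on the same strand and Rag2 on the opposite one, had 29, 25 and 32 counts in CD103KO and 29, 41 and 33 counts in WT, so it was not high in CD103KO replicate 2. Reads in the overlap may be shared between these genes. In CD103KO replicate 2, summed B cell markers were at 35.9 CPM, between the 34.2 and 40.8 CPM of the other CD103KO libraries. Most of that sum was Cd79b, and the other 11 markers were at 10.1 CPM, between 9.55 and 14.8 CPM. The source of the Rag1 and Rag2 counts in CD103KO replicate 2 was not tested.

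Ptcra (ENSMUSG00000036858.8, chromosome 17, 46755663 to 46763712, minus strand), which encodes the pre-T alpha chain, had 0 counts in each CD103KO library and 1, 0 and 0 counts in WT replicates 1, 2 and 3. By the same floor of 3 counts, a count of 0 allows up to 0.0440 CPM in CD103KO replicate 2, the library of lowest depth (Poisson upper bound 0.0542 CPM), and a difference between the groups was not detectable at this depth (exact two-sided permutation p = 1, smallest possible 0.1). The chains that pair with the pre-T alpha chain, or carry its signal, were abundant in both groups. Cd3g, a signalling chain of the complex, was at 793 ± 10.7 CPM in CD103KO and 740 ± 21.8 CPM in WT, and its log2 fold change of 0.10 did not pass (adjusted p = 0.497, edgeR). Trbc1, a constant segment of the beta chain, was at 373 ± 9.02 CPM in CD103KO and 363 ± 4.24 CPM in WT (adjusted p = 0.776). Of the 6 genes on this list 0 were called, and their median log2 fold change was 0.03, beside a median over all tested genes of -0.0025.

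Dntt (ENSMUSG00000025014.13, chromosome 19, 41029275 to 41059525, plus strand), unlike the recombinase genes, was well detected, with 855, 725 and 971 counts in CD103KO and 906, 1277 and 905 counts in WT. It was at 11.6, 10.6 and 12.8 CPM in CD103KO, against 12.1, 13.3 and 11.4 CPM in WT. The groups overlapped, and the SD within each, 1.10 CPM in CD103KO and 0.989 CPM in WT, exceeded the difference between the means. The log2 fold change was -0.07 (SE 0.09, 95% interval -0.27 to 0.14, adjusted p = 0.864, edgeR), an interval that spans levels in CD103KO of 0.827 to 1.10 times those in WT. Its sign was not stable: with a term for libraries with Xist reads it was 0.042 (SE 0.12).

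The enzymes that join DNA ends after RAG cuts and TdT extends them, which all cells use for repair, were detected throughout. Of 13 such genes 0 were called and 1 had an unadjusted p under 0.05, beside 8.73% of all tested genes. The median log2 fold change was 0.02, the range running from -0.13 (Nhej1) to 0.19 (Lig4). Lig4, the ligase that seals the junction, was at 10.5 ± 0.90 CPM in CD103KO and 9.22 ± 0.35 CPM in WT, and its log2 fold change of 0.19 (SE 0.08) did not pass (adjusted p = 0.551, edgeR). Hmgb2, a DNA-bending cofactor of the recombinase, was at 89.7 ± 7.59 CPM in CD103KO and 82.7 ± 1.46 CPM in WT (adjusted p = 0.623).

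Cd24a (ENSMUSG00000047139.9, chromosome 10, 43578284 to 43584265, plus strand) encodes heat-stable antigen, a small glycosylated surface protein anchored by a lipid, abundant on thymocytes and lost as T cells mature. It had 196, 215 and 228 counts in CD103KO and 153, 163 and 171 counts in WT. It was at 2.67, 3.16 and 3.02 CPM in CD103KO, against 2.04, 1.70 and 2.15 CPM in WT. Every CD103KO library was above every WT library, a separation in this direction that 6.82% of all tested genes also had. The log2 fold change was 0.59 (SE 0.14, 95% interval 0.27 to 0.90), which corresponds to levels in CD103KO of 1.204 to 1.87 times those in WT, and it did not pass over all genes (unadjusted p = 0.00248, adjusted p = 0.272, edgeR; adjusted p = 0.119 with DESeq2). WT replicate 3, which like the CD103KO libraries had almost no Xist reads, was the highest WT library at 2.15 CPM, and the lowest CD103KO library was at 2.67 CPM. With the Xist term, against WT replicate 3 alone, the log2 fold change was 0.45 (SE 0.20, edgeR). The part of the difference in Xist reads in the Cd24a level was not tested.

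**Figure D2:**
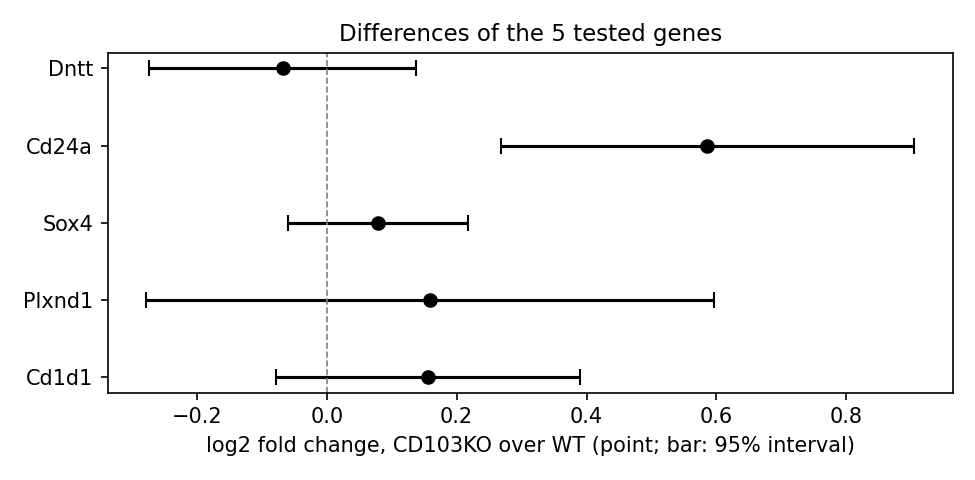
Log2 fold change of CD103KO over WT (horizontal axis) for the 5 genes with enough counts to be tested; points are edgeR estimates and bars 95% intervals. The unadjusted interval of Cd24a, 0.27 to 0.90, lies above 0, the intervals of Dntt, Sox4, Plxnd1 and Cd1d1 include 0, and no gene passed after adjustment over all genes.

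B cells and red blood cells also carry CD24, and the summed markers of both were higher in CD103KO with no overlap between the groups. In bulk RNA, fewer cells of a type and less RNA per cell cannot be told apart. The 12 B cell markers summed to 34.2, 35.9 and 40.8 CPM in CD103KO, against 29.5, 29.2 and 26.7 CPM in WT, with none of them at 0 in all libraries. Most of each sum was Cd79b, at 24.6, 25.8 and 26.0 CPM in CD103KO, against 26.7, 26.3 and 22.9 CPM in WT (log2 fold change 0.01, adjusted p = 0.978, edgeR). The other 11 markers summed to 9.55, 10.1 and 14.8 CPM in CD103KO, against 2.87, 2.95 and 3.80 CPM in WT. The log2 fold changes of all 12 were positive (49% of all tested genes had a positive one), their median was 1.91, and 3 were called by edgeR, namely Cd79a, Ms4a1 and Fcer2a (8 with no filter on low counts). Cd79a, a component of the B cell receptor, was at 2.14, 2.36 and 3.08 CPM in CD103KO, against 0.748, 0.710 and 0.818 CPM in WT. The call of Ms4a1 was lost without CD103KO replicate 2 and without any 1 of the WT libraries. With the Xist term, against WT replicate 3 alone, the median log2 fold change of the 12 markers was 1.54. The 9 markers of erythrocytes and platelets summed to 93.1, 84.9 and 57.5 CPM in CD103KO, against 33.0, 34.3 and 50.1 CPM in WT, with Pf4 at 0, 5 of 5 tested genes positive, 4 of these at an unadjusted p under 0.05 and 0 called by edgeR (3 by DESeq2, and 4 by edgeR with no filter on low counts). Over all tested genes 8.73% had an unadjusted p under 0.05. The order of the CD103KO libraries was not the same: Cd24a was highest in replicate 2, the B cell sum in replicate 3 and the erythrocyte and platelet sum in replicate 1. In WT, replicate 3 was highest for Cd24a, the erythrocyte and platelet sum and the 11 B cell markers other than Cd79b. Its full B cell sum was the lowest of the WT libraries. The part of these cells in the Cd24a level was not tested. Summed markers of myeloid and dendritic cells (3.27 to 4.05 CPM in CD103KO, 2.78 to 5.36 CPM in WT, Siglech at 0), CD4 and regulatory T cells (6.28 to 7.67 CPM in CD103KO, 6.26 to 7.32 CPM in WT), NK and innate-like T cells (1.65 to 2.19 CPM in CD103KO, 2.03 to 2.41 CPM in WT) and lymph node stroma and endothelium (127 to 167 CPM in CD103KO, 137 to 151 CPM in WT, Pdpn at 0) overlapped between CD103KO and WT. The stromal sum was almost wholly Pecam1, which T cells also express, and the other 6 markers summed to 0.661 to 0.939 CPM in CD103KO and 0.561 to 0.930 CPM in WT. Among these Cdh5, an endothelial cadherin gene, was at 0.218, 0.235 and 0.198 CPM in CD103KO, against 0.401, 0.480 and 0.340 CPM in WT. Its groups did not overlap, as in 7.36% of all tested genes in this direction, and it did not pass (log2 fold change -0.91, adjusted p = 0.440, edgeR).

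**Figure D3:**
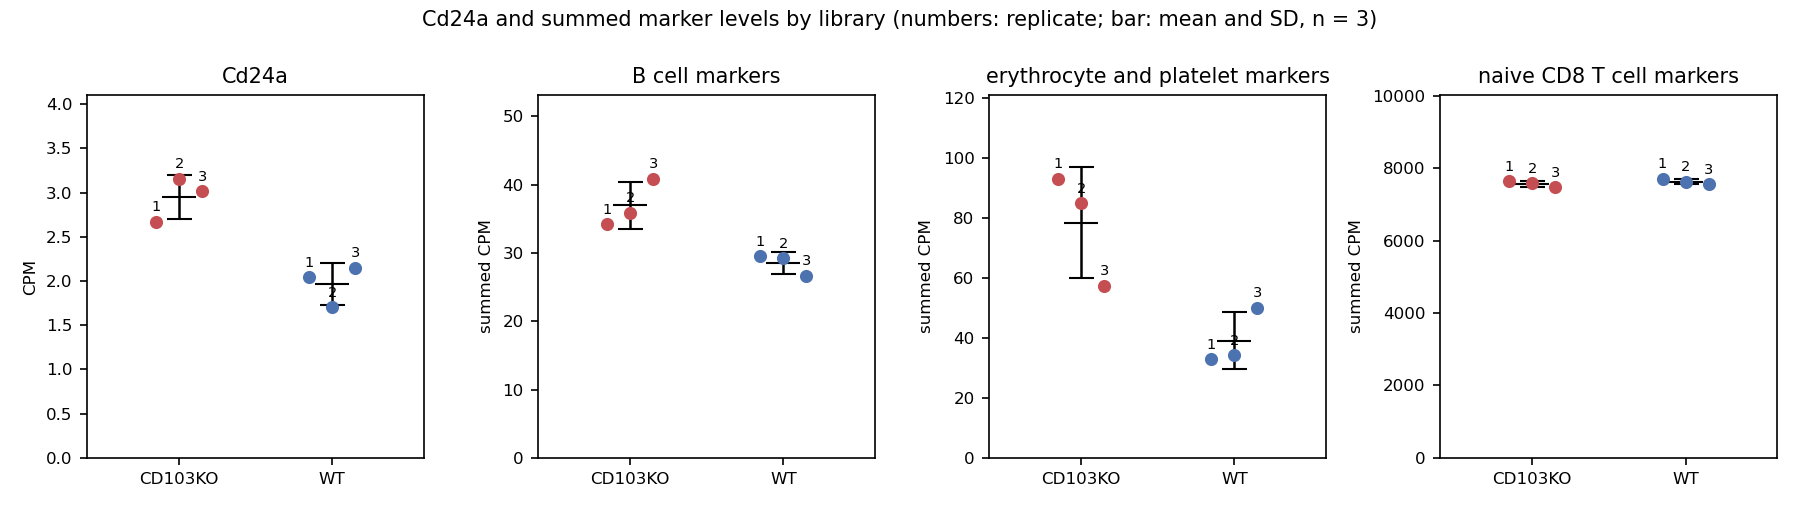
Cd24a in CPM and the summed CPM of 3 marker lists (vertical axes, each from 0) in the CD103KO and WT libraries; points are libraries with their replicate number, bars mean and SD (n = 3). Cd24a, the B cell sum (34.2 to 40.8 CPM in CD103KO, 26.7 to 29.5 CPM in WT) and the erythrocyte and platelet sum (57.5 to 93.1 CPM in CD103KO, 33.0 to 50.1 CPM in WT) separate the groups, while the naive CD8 T cell sum overlaps. Most of the B cell sum is Cd79b, and the other 11 markers sum to 9.55 to 14.8 CPM in CD103KO and 2.87 to 3.80 CPM in WT.

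The genes of 2 proteins that bind CD24, sialic acid-binding Siglec-G (Siglecg, a receptor found on B cells) and P-selectin (Selp, on platelets and endothelium), were below the count filter. Siglecg had 7, 9 and 12 counts in CD103KO and 2, 2 and 5 counts in WT, and Selp had 4, 8 and 6 counts in CD103KO and 9, 25 and 5 counts in WT. Siglecg counts, few in every library, did not overlap between the groups, and those of Selp did. Neither gene passed with DESeq2 (adjusted p = 0.767 for Siglecg and 0.999 for Selp).

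Sox4 (ENSMUSG00000076431.4, chromosome 13, 28948919 to 28953713, minus strand) encodes a transcription factor of the SRY-related HMG-box family that is active in developing lymphocytes. It was at 21.1, 22.5 and 23.1 CPM in CD103KO, against 20.8, 21.8 and 20.6 CPM in WT, from at least 1530 counts in every library. The groups overlapped. The log2 fold change was 0.08 (SE 0.06, 95% interval -0.06 to 0.22, adjusted p = 0.744, edgeR), an interval that spans levels in CD103KO of 0.960 to 1.16 times those in WT and is the narrowest among the 5. A long noncoding RNA on the opposite strand, Gm26735, shares 2616 bases with it but held at most 8 counts in any library. None of its relatives passed: Sox12, of the same subgroup, was at 4.43 ± 0.0933 CPM in CD103KO and 3.73 ± 0.465 CPM in WT (log2 fold change 0.25, adjusted p = 0.581, edgeR), Sox5 at 1.56 ± 0.178 CPM in CD103KO and 1.24 ± 0.155 CPM in WT (0.34, adjusted p = 0.642), and Sox11 at 0 counts in all 6 libraries.

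Plxnd1 (ENSMUSG00000030123.15, chromosome 6, 115954811 to 115995005, minus strand) encodes plexin D1, a semaphorin receptor that in mice guides thymocytes from the cortex to the medulla. It had 103, 92 and 112 counts in CD103KO and 93, 98 and 122 counts in WT. It was at 1.40, 1.35 and 1.48 CPM in CD103KO, against 1.24, 1.02 and 1.53 CPM in WT, so WT replicate 3 was above every CD103KO library. The log2 fold change was 0.16 (SE 0.19, 95% interval -0.28 to 0.60, adjusted p = 0.842, edgeR), the widest interval among the 5 tested genes. With the Xist term, against WT replicate 3 alone, the log2 fold change was -0.12. Of a list of 17 other genes (plexins, semaphorins, neuropilins and the receptor gene Kdr) 8 were tested and 0 called, with a median log2 fold change of 0.04. Nrp2, a semaphorin coreceptor, was at 9.87, 9.75 and 11.5 CPM in CD103KO, against 17.5, 18.1 and 8.04 CPM in WT. Here too WT replicate 3 stood apart from the other WT libraries (log2 fold change -0.49, adjusted p = 0.641, edgeR). Without that library the log2 fold change was -0.78 (adjusted p = 0.0125, edgeR). The WT libraries then left are those with Xist reads, so the group difference cannot be told apart from that in Xist reads. Plxna1, another plexin, was at 8.66 ± 0.386 CPM in CD103KO and 7.16 ± 1.52 CPM in WT (adjusted p = 0.640).

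Cd1d1 (ENSMUSG00000028076.12, chromosome 3, 86995834 to 86999441, minus strand) encodes a relative of MHC class I that presents lipids and, on double-positive thymocytes, selects natural killer T cells. It was at 24.6, 30.5 and 31.4 CPM in CD103KO, against 28.6, 24.3 and 24.7 CPM in WT. Both groups were split, with CD103KO replicate 1 among the WT values and WT replicate 1 among the CD103KO values. The log2 fold change was 0.16 (SE 0.10, 95% interval -0.08 to 0.39, adjusted p = 0.709, edgeR), or 0.26 (SE 0.09, adjusted p = 0.256) without CD103KO replicate 1. Its neighbour copy Cd1d2, annotated as a polymorphic pseudogene, is 96.4% identical to it over 1236 bases, and reads may be divided between them. Cd1d2 was assigned 12.5, 5.27 and 5.21 expected counts in CD103KO and 5.21, 10.4 and 21.01 in WT, against at least 1806 for Cd1d1 in any library. Psap, a precursor of lipid-loading saposins, was at 642 ± 17.0 CPM in CD103KO and 617 ± 13.3 CPM in WT (adjusted p = 0.698, edgeR), and Mttp, which loads lipid onto CD1d, at 1.06 ± 0.340 CPM in CD103KO and 1.08 ± 0.193 CPM in WT (adjusted p = 0.985).

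Other genes of the same developmental steps were read from lists that hold none of the 8. Of 15 genes of early and double-positive thymocytes 11 were tested and 0 called, with a median log2 fold change of 0.08. At an unadjusted p under 0.05 there was 1, beside 8.73% of all tested genes. That gene was Hhex, a homeobox gene of early progenitors and B cells, at 0.178 ± 0.0411 CPM in CD103KO and 0.0455 ± 0.0301 CPM in WT (log2 fold change 1.97, adjusted p = 0.357, edgeR). Hhex had 12, 10 and 17 counts in CD103KO and 6, 3 and 2 in WT. With a minimum count of 10 it entered the test through CD103KO, where it was higher, so its p and fold change carry little weight. Notch3, a receptor of early thymocytes, was at 0.239 ± 0.0655 CPM in CD103KO and 0.140 ± 0.00946 CPM in WT (0.76, adjusted p = 0.593).

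Among 14 transcription regulators of thymic development 0 were called by edgeR, with a median log2 fold change of -0.06, and 1 by DESeq2. The antagonists of the E proteins had log2 fold changes of opposite sign, and neither passed with edgeR. Id3, an inhibitor induced by receptor signals, was at 36.4, 45.3 and 50.3 CPM in CD103KO, against 34.4, 31.1 and 33.4 CPM in WT. Id2, which is raised in effector cells, was at 68.5, 52.7 and 50.8 CPM in CD103KO, against 76.3, 72.3 and 62.9 CPM in WT. In Id3 the groups did not overlap, as in 6.82% of all tested genes in this direction, and in Id2 CD103KO replicate 1 lay above WT replicate 3. The log2 fold change of Id3 was 0.42 (SE 0.11, adjusted p = 0.310, edgeR). It was called by DESeq2 (adjusted p = 0.00743), by edgeR with no filter on low counts (0.41, adjusted p = 0.0288) and by edgeR without CD103KO replicate 1 (0.54, adjusted p = 0.0262). That of Id2 was -0.30 (adjusted p = 0.497, edgeR; 0.233 with DESeq2). Of the E protein genes, Tcf3 was at 116 ± 3.53 CPM in CD103KO and 111 ± 1.01 CPM in WT (adjusted p = 0.656, edgeR), and Tcf12 at 174 ± 6.14 CPM in CD103KO and 171 ± 5.68 CPM in WT (adjusted p = 0.903).

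Genes that are higher in newly selected single-positive cells and genes that are gained with maturation were also compared. Over all tested genes 8.73% had an unadjusted p under 0.05. Of 10 genes of the first kind 0 were called by edgeR, 2 had an unadjusted p under 0.05, both higher, and the median log2 fold change was 0.09. Ikzf2, encoding the transcription factor Helios, was at 11.6, 13.1 and 13.7 CPM in CD103KO, against 10.3, 10.2 and 9.37 CPM in WT (log2 fold change 0.36, SE 0.08, adjusted p = 0.227, edgeR; 0.0358 with DESeq2). The groups of Ikzf2 did not overlap, as in 6.82% of all tested genes in this direction. Itm2a, a membrane protein gene induced by selection, was at 54.9 ± 1.39 CPM in CD103KO and 48.4 ± 5.31 CPM in WT (0.18, adjusted p = 0.524). Of the second kind 11 of 12 were found in the table and tested, 0 were called by edgeR, 6 had an unadjusted p under 0.05 (2 higher, 4 lower) and the median was -0.08. H2-Q6, a nonclassical MHC class I gene of the Qa-2 group, which T cells gain as they mature, was at 149, 127 and 124 CPM in CD103KO, against 172, 188 and 167 CPM in WT. The groups did not overlap, as in 7.36% of all tested genes in this direction, and the log2 fold change of -0.40 (SE 0.07) did not pass with edgeR (adjusted p = 0.132) but did with DESeq2 (6.57e-05), with edgeR and no filter on low counts (adjusted p = 0.00116) and with edgeR without CD103KO replicate 1 (-0.49, adjusted p = 0.0136). Its near-identical relatives may share its reads. Ly6c1, whose product is one of the Ly6C antigens used in the sort, was at 0.80 ± 0.25 CPM in CD103KO and 0.250 ± 0.152 CPM in WT (1.67, adjusted p = 0.304, edgeR; 0.0400 with DESeq2). Ly6c2, which also encodes a Ly6C antigen, was at 35.8 ± 3.94 CPM in CD103KO and 22.8 ± 7.26 CPM in WT (0.65, adjusted p = 0.430, edgeR). Its groups did not overlap, as in 6.82% of all tested genes in this direction. Reads may be divided between Ly6c1 and Ly6c2, whose expected counts were not whole. Il7r, the interleukin 7 receptor gene, was at 281 ± 5.29 CPM in CD103KO and 304 ± 9.34 CPM in WT (-0.11, adjusted p = 0.455, edgeR).

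**Figure D4:**
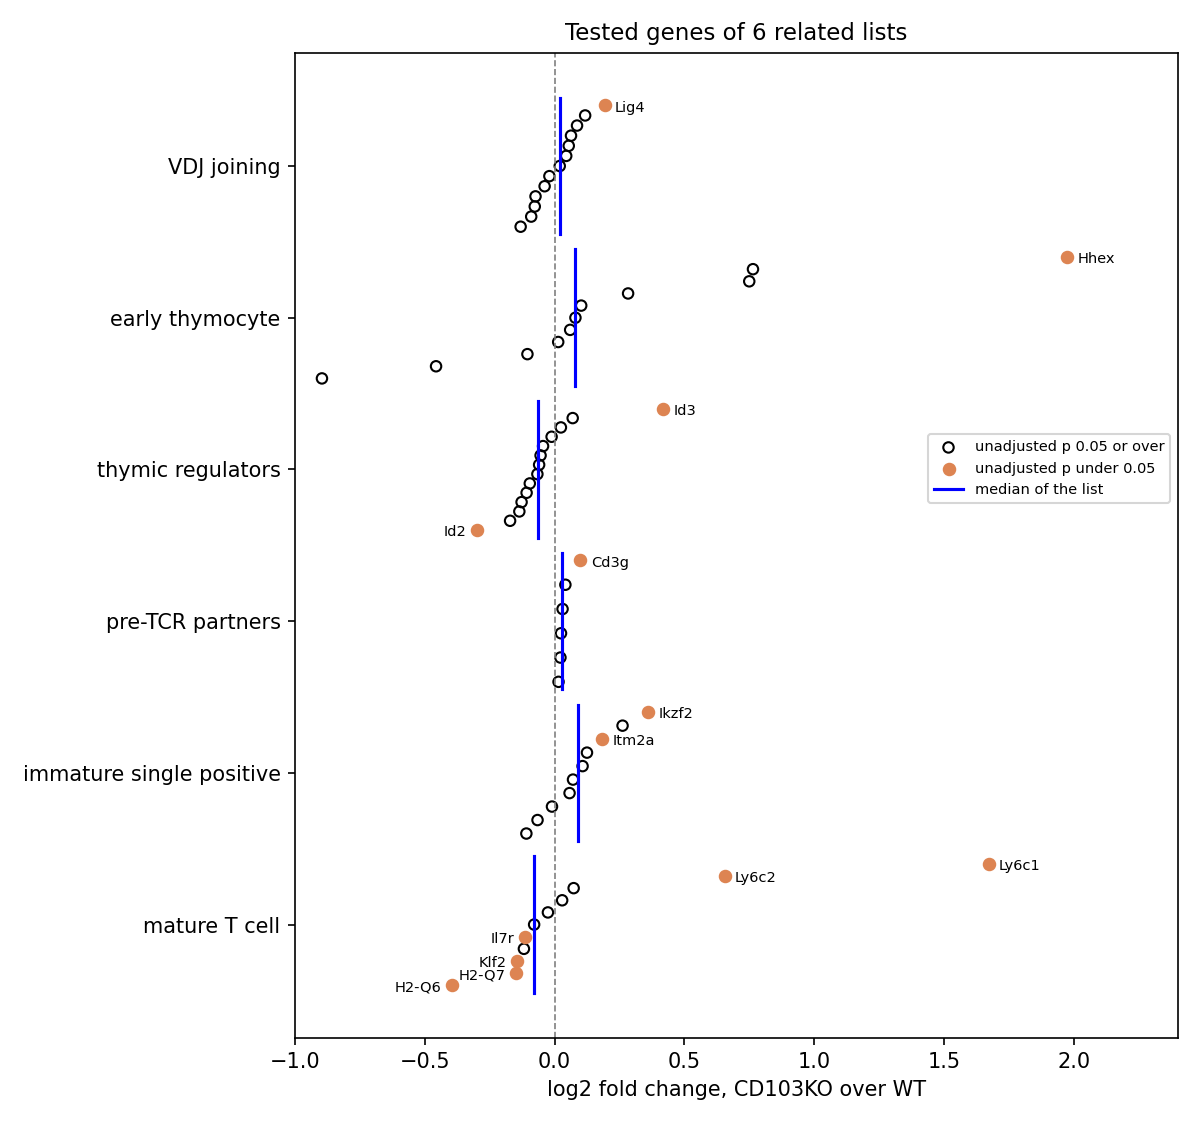
Log2 fold change of CD103KO over WT (horizontal axis) for each tested gene of 6 lists (rows), filled where the unadjusted edgeR p is under 0.05, with the median of each list as a vertical bar. The medians run from -0.08 (mature T cell genes) to 0.09 (immature single-positive genes), and 0 of the genes drawn was called after adjustment over all genes.

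Across the 6 libraries, the tested genes whose log2 CPM followed a member most closely were Zbtb34 for Cd24a (Pearson r = 0.991), Nfyb for Plxnd1 (0.999), Brdt for Dntt (0.978) and Ss18l1 for Cd1d1 (0.996). The next in line were Ppp3ca and Phf19 for Cd24a, Psma6 and Timm50 for Plxnd1, Ndc80 and Hjurp for Dntt, and Ints8 and Syvn1 for Cd1d1. The 3 nearest to Sox4 included Rnf40 (0.983) and Flvcr1 (0.973). These are descriptions over 6 points that share library and group: among 9989 genes searched, 198 had r above 0.9 with Cd24a, 84 with Sox4, 177 with Plxnd1, 18 with Dntt and 419 with Cd1d1. No member was among the 3 nearest of another.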

How the data were processed

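Polyadenylated RNA of sorted CD8 T cells was sequenced from stranded libraries, per the labels' protocols. The submitters' processing notes name bcl2fastq 2.20 and cutadapt 1.18, then STAR 2.7.0f with RSEM, and the builds GRCm38 and mm10. For the annotation release, the strand setting and reads with several alignments, the sources used here say nothing. The values the authors deposited are expected counts, unnormalized, of which 6.48% were not whole, and these were rounded. All 55450 gene IDs matched GENCODE M21, the source of coordinates and merged exon lengths.

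The comparison of CD103KO with WT used edgeR 4.0.16 (R 4.3.3): filterByExpr (minimum count 10), TMM, a quasi-likelihood F test with group as the one term, and Benjamini-Hochberg adjustment. CPM use TMM-scaled library sizes, and standard errors are the log2 fold change over the square root of F. The test was checked on simulated data. The limit for a count of 0 is a floor of 3 counts, and intervals cover counting error only. No library looked like a copy of another in its group (chi-square per degree of freedom 12.7 to 26.4, against about 1 for sampling noise). Similar transcripts were sought with megablast (BLAST+ 2.17.0, 90% identity over 300 bases).

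The members and lists were chosen with earlier results of these data known. Genes were named by rule: the 8 members, Itgae, the called or else the 2 tested genes of smallest p of each list, the 3 genes most alike to each tested member (mean of at least 1 CPM), and overlapping or near-identical genes. Nhej1, Tcf3, Tcf12, Il7r, Cd79a, Cd79b, Pecam1, Cdh5, Ms4a1, Fcer2a, Siglecg, Selp, Sox11, Ly6c2, Xist and Ddx3y were chosen after their values were seen, as were the marker sums without Cd79b or Pecam1. The values of 1 gene that the rule names are not reported here. Alternatives were RLE, upper-quartile and no factors, no filter, 1 CPM in 3 libraries, DESeq2 1.42.0, limma-voom (limma 3.58.1), unrounded counts, the replicate block, a term for libraries with Xist above 1 CPM, and each library left out.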

Additional observations from a re-analysis of the deposited data

How the results depend on the processing

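None of the genes tested was called under any of the 16 alternatives, which tested all 8 with no filter, 6 with DESeq2 and 5 otherwise. Cd24a, Sox4 and Cd1d1 kept a positive log2 fold change in all of them (0.45 to 0.66, 0.05 to 0.11 and 0.09 to 0.26). The sign turned with the term for Xist reads for Plxnd1 (-0.12) and Dntt (0.042); the cause was not tested. The adjusted p of Cd24a ran from 0.119 (DESeq2) to 0.937 (without CD103KO replicate 2). The number of genes called in all was 112 with no filter, 128 with DESeq2 and 15 with the Xist term, against 30. Leaving out a library gave 19 to 59, with 59 without CD103KO replicate 1, 19 without CD103KO replicate 2 and 52 without WT replicate 3. Without WT replicate 3, the group difference cannot be told apart from that in Xist reads. With no filter 1 thymic regulator (Id3), 2 mature T cell genes (H2-Q6 and Ly6c2), 8 B cell markers and 4 erythrocyte and platelet markers were called. DESeq2 called 1 thymic regulator (Id3), 1 immature single-positive gene (Ikzf2), 2 mature T cell genes (H2-Q6 and Ly6c1), 7 B cell markers and 3 erythrocyte and platelet markers. With the Xist term the median log2 fold change of the B cell markers was 1.54. With a library left out, calls ran from 0 to 1 among thymic regulators (Id3, without CD103KO replicate 1), 0 to 1 among mature T cell genes (H2-Q6 without CD103KO replicate 1, Ly6c2 without WT replicate 3), 0 to 1 among plexin and semaphorin genes (Nrp2, without WT replicate 3), 0 to 2 among erythrocyte and platelet markers (2 without CD103KO replicate 3) and 2 to 3 among B cell markers. Samples with the same replicate number did not deviate together (r = -0.199, -0.00535 and -0.0299), so the numbers were not taken to pair samples. A replicate block gave 24 called genes and 0 of the 5 tested. Depth limits Rag1, Rag2 and Ptcra most, with 0 to 24 counts per library.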
